A study of Mus musculus with 73 samples.

Results

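Klf2_E058 is an enhancer fragment from the mouse Klf2 locus, listed as a window of 450 bp at chr8:72316077-72316526 (mm10) and cloned as the shorter PCR product between primers placed near the ends of that window. It was measured here in tandem with enhancer fragments of other loci, in reporter plasmids that carry 1 of 8 promoters. The combinations described are those with Klf2_E058 in either enhancer position and a partner from another locus in the other position. There were 2897 such combinations among 69206 enhancer-enhancer combinations and 110180 combinations of all kinds, and they held 54 partners from 8 loci (Fgf5, Lefty1, Nanog, Nodal, Otx2, Pou5f1, Sox2 and Tbx3). Klf2_E058 was chosen by its single-enhancer boost index, with earlier results of these data known, so its own strength is given as a description and carries no test. E14TG2a cells, an established mouse embryonic stem cell line, were grown in 2i+LIF medium and transfected with 1 promoter library at a time. Each library was transfected in 3 biological replicates, and RNA was collected after 24 hours. The promoters were those of 7 developmentally regulated genes (Sox2, Klf2, Otx2, Fgf5, Lefty1, Nanog and Tbx3) and of Ap1m1, which the study used as a housekeeping promoter. All libraries shared the cell line, the medium and a plasmid outside the genome, and 20 random sequences in the enhancer positions served as controls.

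Klf2 encodes a zinc finger transcription factor of the network that maintains naive pluripotency. Enhancers are stretches of DNA that bind transcription factors and raise the output of a promoter, and most genes active in embryonic stem cells lie near several of them. When 2 enhancers act on 1 promoter, their contributions may add (the pair gives the sum of both increments over the baseline), may multiply, or may fall short of the stronger enhancer alone. The partners came from loci of other pluripotency or early developmental genes: Nanog, Sox2 and Pou5f1 encode core pluripotency factors, Nodal and Lefty1 a ligand and an inhibitor of the same signalling pathway, Otx2 and Fgf5 a transcription factor and a growth factor linked to the exit from naive pluripotency, and Tbx3 a T-box factor.

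Klf2_E058 overlapped no protein-coding gene in RefSeq (GRCm38.p6). The nearest one was Klf2, 2536 bp away, and 2131 bp separated the fragment from the Klf2 promoter fragment (chr8:72318658-72319107). In the plasmids both enhancers lay downstream of the promoter. The following primers, which mark the ends of the fragments, are shown for Klf2_E058, for the 4 partners with which it gave the clearest losses and for 4 with which it gave the clearest gains, written 5′ to 3′ with no part marked.
Klf2_E058 forward: cagggccataggttcagacaaag
Klf2_E058 reverse: aaggatgtttcaaactaagcctgacag
Pou5f1_E084 forward: gattagacgcttgtagcttgaactgtc
Pou5f1_E084 reverse: ggagagagcctgattgattagcaaatg
Sox2_E179 forward: aggtgaccttgaaatgaccctcttatc
Sox2_E179 reverse: aacagataagcaaccacagagaggag
Nodal_E159 forward: tccttgttccctacactataagcatcc
Nodal_E159 reverse: ttgaaccagcggtctcctgc
Nanog_E074 forward: ccctgtaccaaacctttgtagaacttg
Nanog_E074 reverse: ggatacaaagcccagcaaactacc
Otx2_E114 forward: tctccacagcgagcttagataataaac
Otx2_E114 reverse: aattgaccgttagatataaggctgtgc
Pou5f1_E083 forward: attcaagggttgagtacttgtttaggg
Pou5f1_E083 reverse: cagagaagtgctggctctgc
Tbx3_E203 forward: ggatggctcaagaaggaagagttctatc
Tbx3_E203 reverse: aatgggtcactgggtcggtg
Lefty1_E094 forward: tttcttacttagccctcatttccctcg
Lefty1_E094 reverse: cgtactgaatctgggacttggttacac

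The promoter of the fragment's own gene is shown next, because Klf2_E058 was measured on it and on the neighbouring Ap1m1 promoter of the same chromosome. These are the 250 bases before the annotated Klf2 start (RefSeq, GRCm38.p6, chr8:72318812-72319061, plus strand), all inside the promoter fragment, with GC boxes (GGGCGG, searched on both strands) in capitals.
Klf2 promoter: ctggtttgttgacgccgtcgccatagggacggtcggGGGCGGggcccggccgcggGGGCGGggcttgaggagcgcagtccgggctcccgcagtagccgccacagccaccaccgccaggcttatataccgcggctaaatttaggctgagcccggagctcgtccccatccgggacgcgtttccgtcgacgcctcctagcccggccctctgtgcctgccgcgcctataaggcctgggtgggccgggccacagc
The stretch was 71.2% G+C and held 2 GC boxes, and 32.7% of 32851 RefSeq windows of the same length held at least 1. Otx2_E114 (chr14:48664703-48665152) reached into such a window of an Otx2 transcript start. The 43 bases of its listed window that precede that start (chr14:48665110-48665152, minus strand) are given with the site of its reverse primer in capitals.
Otx2_E114 end: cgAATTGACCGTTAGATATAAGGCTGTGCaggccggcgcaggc

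Activity was the ratio of a combination's barcode counts in RNA to those in plasmid DNA, averaged by the authors over at least 5 barcodes. The deposited ratios carry no counts, so the depth behind a combination is unknown and no counting interval is given. None of the 2897 combinations was at 0 in any replicate. Between 272 (Fgf5 library) and 390 (Ap1m1 library) of them were measured per library. Their log2 activities correlated between replicates with Pearson's r of 0.69 to 0.90 in 7 libraries, and of 0.48 to 0.51 in the Fgf5 library, across combinations that share 1 enhancer. The median SD of a combination over its 3 replicates was 0.12 to 0.17 (log2) in 7 libraries and 0.27 in the Fgf5 library. The Fgf5 library also held few control combinations of Klf2_E058, 6 with the fragment in position 1 and 3 in position 2. Each other library held 45 to 73 per position. An expectation was therefore computed in the Fgf5 library only for position 1, where the 6 controls had a median of 2.88 with an SD of 1.43.

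Alone, paired with controls only, Klf2_E058 ranked second of 58 single enhancers by its boost index averaged over libraries. This index gives activity over the baseline of the promoter, in log2 units, with the median of the control-control combinations as the baseline. The averages were 3.28 for Pou5f1_E081, 3.04 for Klf2_E058 and 2.82 for Nanog_E073. By promoter, the boost index of Klf2_E058 was 4.80 ± 0.09 (SD, n = 3) at Lefty1, 4.55 ± 0.13 at Sox2, 4.44 ± 0.39 at Tbx3 and 3.86 ± 0.74 at Fgf5. It was 2.21 ± 0.23 at Nanog, 1.95 ± 0.22 at Otx2, 1.89 ± 0.10 at Klf2 and 0.59 ± 0.14 at Ap1m1. The promoters thus fell into a group of 4 with boosts near 4 and above, a group of 3 near 2, and Ap1m1. In the order of levels, Sox2 and Tbx3, Tbx3 and Fgf5, and Otx2 and Klf2 differed by less than the larger of their SDs. The steps from Lefty1 to Sox2, Fgf5 to Nanog, Nanog to Otx2 and Klf2 to Ap1m1 were larger than that.

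With an enhancer of another locus in place of the control, the activity stayed close to that of Klf2_E058 alone. At the Lefty1 promoter the median activity over the combinations was 2.46, 2.67 and 2.61 in the 3 replicates, a boost index of 4.90 ± 0.12 (SD, n = 3). At the Sox2 promoter the medians were 4.66, 4.21 and 3.91 (boost index 4.63 ± 0.14). At the Tbx3 promoter they were 2.69, 2.75 and 2.55 (boost index 4.54 ± 0.35). These 3 promoters gave the highest boosts of the pairs, as they did for the fragment alone. At the Fgf5 promoter the medians were 3.85, 3.67 and 3.49, with the widest SD of all libraries (4.07 ± 0.53). At the Nanog, Otx2 and Klf2 promoters the boost indices were 2.18 ± 0.24, 1.96 ± 0.24 and 1.88 ± 0.14. At the Ap1m1 promoter the medians were 0.94, 0.98 and 0.90, a boost index of 0.67 ± 0.17. The pairs were also spread less than enhancer pairs at large. From the 5th to the 95th percentile they spanned 1.13 to 1.47 log2 units per library, where all enhancer-enhancer combinations of a library spanned 1.55 to 4.56, which is a description of combinations that share a strong fragment.

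The gain over Klf2_E058 alone was the log2 ratio of a pair's activity to that of the fragment with controls in the same position. Its median per library was between -0.0021 ± 0.014 (Nanog) and 0.14 ± 0.03 (Tbx3) in 7 libraries, and 0.41 ± 0.24 in the Fgf5 library. The mean over the 8 libraries was 0.10, above 0 in 7 of 8, and 0.05 without the Fgf5 library. Against the stronger of the 2 single enhancers the mean gain was 0.08, positive in 6 of 8 libraries, and 0.036 without the Fgf5 library. Both gains are set against the activity of Klf2_E058 alone, which chose the fragment, so they are given as a description with no test. Between 37.6% (Tbx3) and 50% (Nanog) of the combinations lay below Klf2_E058 alone in 7 libraries, and 17.6% in the Fgf5 library. In the same 7 libraries, 37.7% to 51.4% of the combinations lay below the stronger single enhancer, and 15.4% to 33.7% of all enhancer-enhancer combinations did. In the Fgf5 library the order was the other way, with 14.2% of the Klf2_E058 combinations and 17.6% of all.

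Set against the sum of both single enhancers, the pairs were lower in 7 of 8 libraries. The log2 ratio of observed to additive expected activity, the deviation, had medians of -0.31 ± 0.02 (SD, n = 3) at Nanog, -0.26 ± 0.02 at Otx2, -0.23 ± 0.03 at Klf2 and -0.19 ± 0.05 at Ap1m1. At the strongly boosted promoters it was nearer to 0, with -0.13 ± 0.03 at Lefty1, -0.12 ± 0.06 at Sox2 and -0.05 ± 0.02 at Tbx3. The Fgf5 library stood on the other side, at 0.28 ± 0.25, where the median over all enhancer-enhancer combinations was 0.61. That median was 0.24 at Lefty1, 0.18 at Sox2 and 0.26 at Tbx3, and between -0.05 and -0.01 at Nanog, Otx2, Klf2 and Ap1m1. Against other enhancers on the same partners, the deviation of Klf2_E058 differed by -0.36 at Lefty1, -0.31 at Sox2 and -0.30 at Tbx3. At Nanog, Klf2, Otx2 and Ap1m1 it differed by -0.23, -0.22, -0.19 and -0.15. The mean over all libraries for Klf2_E058 was -0.13 and did not pass the test (p = 0.1016, two-sided exact permutation of the signs of the 8 library values, with 0.0078 the smallest p possible). Without the Fgf5 library it was -0.18 and below 0 in 7 of 7 libraries (exact p = 0.0156, the smallest that 7 libraries allow). The activity of Klf2_E058 alone enters every expectation and also chose the fragment, so these tests are not independent of that choice. The product of both single enhancers lay much further off. The deviation from the multiplicative expectation was -1.37 ± 0.02 at Lefty1, -1.34 ± 0.13 at Sox2 and -1.28 ± 0.14 at Tbx3, and -0.88, -0.75, -0.68 and -0.29 at Nanog, Otx2, Klf2 and Ap1m1. It was 0.35 ± 0.60 at Fgf5, and the mean over libraries was -0.78 (p = 0.0234, exact). By absolute deviation, 76.8% (Ap1m1) to 94.6% (Sox2) of the combinations lay nearer to the additive than to the multiplicative expectation. The median absolute deviation was smaller for the additive one in 8 of 8 libraries, by a mean of 0.64 log2 units (p = 0.0078, exact). The activity of Klf2_E058 alone is also a factor of every product. The tests that use the multiplicative expectation are therefore not independent of the choice of the fragment either.

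Single combinations were tested with limma in each library, over all enhancer-enhancer combinations together, at a false discovery rate (FDR) of 5%. Over the 8 libraries, 335 combinations of Klf2_E058 lay above the additive expectation and 998 below it. Leaving out 1 replicate in turn gave 87 to 211 above and 287 to 777 below. The background differed between promoters. The activity of Klf2_E058 alone chose the fragment and raises its additive expectations. The shares set against the background below are therefore a description of a fragment chosen that way. In the Sox2 library 61 of 351 combinations (17.4%) were above and 107 (30.5%) below, against 34.7% and 10.6% of all combinations tested there. In the Lefty1 library 73 of 385 (19.0%) were above and 138 (35.8%) below, against 44.2% and 12.5%. In the Tbx3 library 88 of 374 (23.5%) were above and 108 (28.9%) below, against 43.1% and 10.0%. At these 3 promoters, where more enhancer pairs exceeded than missed their sum, the order was turned for Klf2_E058. In the Nanog library 29 of 356 (8.15%) were above and 185 (52.0%) below, against 17.5% and 25.3%. In the Otx2 library 28 of 373 (7.51%) were above and 167 (44.8%) below, against 12.0% and 18.9%. In the Klf2 library 33 of 383 (8.62%) were above and 159 (41.5%) below, against 13.3% and 16.3%. At these 3 promoters, too, the share below was larger than the background and the share above smaller. In the Ap1m1 library 22 of 388 (5.67%) were above and 133 (34.3%) below, against 10.6% and 16.7%. In the Fgf5 library 1 of 134 combinations was called in each direction, against 8.37% and 0.170%, while 47 had an unadjusted p under 0.05. By a plain rule of more than 1 propagated SD from the additive expectation, 219 combinations were above and 732 below, against 17.5% and 7.99% of all combinations with an expectation in the 8 libraries.

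Partners differed widely alone, but the activity of the pair differed little with them. Partners were ranked by their activity with controls in the position that the expectation did not use, and split into 3 classes of about equal size. At the Sox2 promoter the weakest class had a median boost index of 0.67 alone and the strongest class 3.78, yet the pairs with Klf2_E058 had medians of 4.55 and 4.63. At the Lefty1 promoter the partners' 0.65 and 3.42 became 4.78 and 4.91 in the pair. At the Nanog promoter, 0.44 and 1.73 became 2.19 and 2.09. The deviation from the sum was accordingly lowest with the strong partners: -0.50 ± 0.13 (SD, n = 3) against -0.04 ± 0.05 at Sox2, -0.39 ± 0.08 against -0.07 ± 0.04 at Lefty1 and -0.72 ± 0.07 against -0.11 ± 0.04 at Nanog. With the same partners split at the median of their ranking, the deviation with stronger partners minus that with weaker ones was -0.25 on average and below 0 in 8 of 8 libraries (p = 0.0078, exact sign-flip test). It was largest at Nanog (-0.41 ± 0.08). At Ap1m1 it was -0.05, but 0.03, 0.02 and 0.05 in the 3 replicates taken singly, so its direction there was not settled. The pair followed the partner most clearly at Ap1m1, where the strongest class (median boost index 0.61) was near Klf2_E058 (0.59) when alone. There the weakest class gave a gain over Klf2_E058 alone of -0.06 ± 0.05 and the strongest 0.26 ± 0.07. From the weakest to the strongest class the gain also rose at Fgf5 (0.32 to 0.52), Lefty1 (-0.05 to 0.12) and Otx2 (-0.10 to 0.04). It rose less at Sox2 and Klf2, and fell at Nanog (-0.01 to -0.08) and Tbx3 (0.13 to 0.10). Across 53 partners in the Ap1m1 library, which share the fragment and the library, the gain correlated with the partner's own boost index at r = 0.59. In the other libraries r was between -0.04 and 0.27, over 44 (Fgf5) to 54 partners.

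Single partners nevertheless differed. Among 53 partners of at least 6 libraries, 5 gave a gain over Klf2_E058 alone below 0 in every library measured. With 17 the gain was above 0 in every one. This gain is set against the activity of Klf2_E058 alone, which chose the fragment. No such counts over all enhancer pairs are set beside these, so they are a description with no test. Medians were taken per partner and library, and all 1314 enhancer pairs measured in at least 6 libraries were fitted together with limma, with the libraries as units. Of the 53 partners of Klf2_E058 among them, 18 (34.0%) lay below the additive expectation and 5 (9.43%) above it, against 9.21% and 21.3% of all pairs. The median deviation was -0.09 over the partners and 0.14 over all pairs. A second fit, added after the values were seen, set each pair against the stronger of its single enhancers. It placed 10 partners (18.9%) below and 17 (32.1%) above, against 3.88% and 68.2% of all pairs. By mean boost index, the stronger enhancer was Klf2_E058 for every partner but Pou5f1_E081. The activity of Klf2_E058 alone chose the fragment and also enters the additive expectations of the first fit. The counts of that fit, and the adjusted p-values given below for its partners, are therefore not independent of that choice. Its shares against all pairs, and the counts from the second fit, are a description. Profiles of the partners were alike from promoter to promoter. The deviations correlated between the developmental promoters at r of 0.81 to 0.96 and between these and Ap1m1 at 0.71 to 0.89, over 38 to 53 partners that share Klf2_E058.

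Pou5f1_E084 gave the lowest gain of all partners. This fragment (chr17:35509279-35509728) lies within the Pou5f1 gene and was weak alone, with a boost index of 0.52 averaged over libraries and between -0.59 (Ap1m1) and 1.62 (Sox2). Paired with it, Klf2_E058 kept 60.7% of its activity. The gain was -0.72 ± 0.14 (SD over 8 libraries), from -0.88 at Otx2 to -0.47 at Sox2, and below 0 in each of the 3 replicates of every library. At the Lefty1 promoter the median activity of the pair was 1.38, 1.45 and 1.34 in the 3 replicates, where Klf2_E058 alone had medians of 2.63 in position 1 and 2.30 in position 2. At the Otx2 promoter it was 0.84, 0.90 and 0.99, where the fragment alone had 1.59 and 1.57. At both promoters every replicate lay below both levels of the fragment alone. The pair fell below the stronger single enhancer by 0.73 ± 0.06 (SE, 7 libraries). The loss was not the same in all arrangements. At the Lefty1 promoter, with both fragments in plus orientation, the replicates gave 2.17, 2.66 and 3.32 with Klf2_E058 in position 1, and 1.98, 2.66 and 2.36 with it in position 2. The other 6 arrangements had mean activities of 1.04 to 1.54. At the Ap1m1 promoter, in contrast, all 8 arrangements lay between 0.42 and 0.70, below the fragment alone (0.79 and 0.96).

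With 3 more partners, Sox2_E179, Nodal_E159 and Nanog_E074, the pair also fell below its stronger member, although each of them had a positive boost index alone in every library. Sox2_E179 (chr3:34756564-34757013, 104103 bp from the Sox2 gene) had a boost index of 1.66 alone and a gain of -0.45 ± 0.19 over 7 libraries, negative in all of them. Its shortfall against the stronger enhancer was -0.45 ± 0.07 (SE). Nodal_E159 (chr10:61415836-61416285, 1687 bp from Nodal) was among the 5 strongest enhancers, at 2.80. With it the pair had the lowest deviation of all partners, -1.13 ± 0.08 (SE, limma adjusted p = 3.0e-05), below 0 in 8 of 8 libraries. Its gain over Klf2_E058 alone was -0.41 ± 0.29 and negative in each replicate of 7 libraries, with 0.23 ± 0.29 in the Fgf5 library (3 combinations). At the Sox2 promoter Nodal_E159 and Klf2_E058 alone had boost indices of 3.99 and 4.55, and the pair had activities of 3.19, 2.81 and 2.55 in the 3 replicates against 4.19 and 3.76 for Klf2_E058 alone in the 2 positions. Nanog_E074 (chr6:122702830-122703279, 4210 bp from Nanog) behaved alike: alone 2.56, deviation -1.03 ± 0.09 (SE, limma adjusted p = 3.9e-05) and gain -0.41 ± 0.26, negative in each replicate of 7 libraries. Against the stronger enhancer, Nodal_E159 pairs fell short by -0.44 ± 0.08 (SE) and Nanog_E074 pairs by -0.41 ± 0.09 (SE). The other 6 partners called below the stronger enhancer were Lefty1_E087, Lefty1_E093, Otx2_E110, Nanog_E065, Sox2_E183 and Pou5f1_E079, with shortfalls between -0.30 and -0.15. The listed window of Nanog_E073 shares 66 bp with that of Nanog_E074. Nanog_E073 was stronger alone (2.82), but its pairs did not fall below Klf2_E058 alone, with a gain of 0.09 ± 0.11 over 7 libraries and a deviation of -0.71.

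The strongest partner alone was Pou5f1_E081 (chr17:35503887-35504336, 1696 bp from Pou5f1), at 3.28. Its pairs with Klf2_E058 reached a mean boost index of 3.15, between those of both fragments alone. The deviation was -0.78 ± 0.06 (SE, limma adjusted p = 3.0e-05) and the gain over Klf2_E058 was 0.17 ± 0.25, positive in 5 of 8 libraries. At the Sox2 promoter the pair had 5.14, 4.53 and 4.14 in the 3 replicates. Sox2_E180 (chr3:34757763-34758212), at 2.81 alone, gave a deviation of -0.79 ± 0.08 (adjusted p = 1.5e-04, limma) and a gain of -0.08 ± 0.24. Lefty1_E085, at 2.76 alone, gave -0.46 ± 0.09 (adjusted p = 0.0052, limma) and a gain of 0.24 ± 0.28. So none of the 5 strongest partners brought the pair near the sum, but they differed in whether it lay above or below Klf2_E058 alone. The 3 weakest partners gave no common direction either. Otx2_E110 had a boost index of -0.05 alone and a gain of -0.20 ± 0.13, negative in 7 of 8 libraries. Pou5f1_E079 had 0.10 alone and a gain of -0.15 ± 0.08, negative in 8 of 8. Nodal_E157 had 0.08 alone and a gain of 0.18 ± 0.22, positive in 8 of 8.

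The 5 partners called above the sum had boost indices of 0.18 to 1.37 alone. Otx2_E114, which overlaps an annotated Otx2 start as shown above, led with 0.42 ± 0.07 (SE, limma adjusted p = 0.0029), above 0 in 8 of 8 libraries. Its boost index alone was 0.68, and in the pair it raised Klf2_E058 to 151% of its own activity (gain 0.60 ± 0.18, SD over 8 libraries). At the Klf2 promoter the pair had medians of 2.59, 2.72 and 2.22 in the 3 replicates, above the 1.37 and 1.51 of Klf2_E058 alone. These library values are medians over arrangements, which differed. With both fragments in minus orientation and Klf2_E058 in position 1, the deviation was -1.70 at Sox2, -0.86 at Nanog and -0.62 at Otx2. In that arrangement it was -0.44 at Ap1m1 and -0.25 at Lefty1, but 0.50 at Klf2, 0.24 at Tbx3 and 0.22 at Fgf5. Pou5f1_E083 (chr17:35505064-35505513, 519 bp from Pou5f1) followed with a deviation of 0.37 ± 0.10 (adjusted p = 0.0224, limma). With it the gain was 0.59 ± 0.19, or 151%, and at the Tbx3 promoter the replicates gave 4.16, 4.41 and 3.78 against 2.51 and 2.30 for Klf2_E058 alone. Tbx3_E203 (chr5:119656667-119657116, 13418 bp from Tbx3) gave 0.29 ± 0.08 (adjusted p = 0.0216, limma), with a gain of 0.58 ± 0.09. At the Lefty1 promoter its replicates were 3.86, 3.88 and 4.12. For all 3 partners the gain was positive in each replicate of all 8 libraries, although in the Fgf5 library Tbx3_E203 was measured in 1 combination only. Otx2_E115 (0.29 ± 0.08) and Nodal_E162 (0.19 ± 0.06) completed the 5, with limma adjusted p of 0.0207 and 0.0300. At an FDR of 1% Otx2_E114 was the 1 partner still called above the sum. The largest gain of all belonged to Lefty1_E094 (chr1:180933655-180934104, 918 bp from Lefty1), a strong partner at 2.20 alone. Its pairs reached 160% of Klf2_E058 alone (gain 0.68 ± 0.16, positive in each replicate of 8 libraries), near the sum (deviation 0.14 ± 0.10, limma adjusted p = 0.27).

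Klf2_E058 was more active in plus than in minus orientation. For the same partner, partner orientation and position, the difference in log2 activity was 0.21 on average, from 0.05 ± 0.04 at Ap1m1 to 0.32 ± 0.02 at Sox2, and positive in 8 of 8 libraries (p = 0.0078, exact sign-flip test). At the Sox2 promoter in position 1 the median activity was 5.06 over 98 plus combinations and 4.00 over 99 minus combinations. The fragment alone showed the same order there, with 4.52 and 3.65. By such medians, not matched by partner, plus was the higher in both positions of 6 libraries. In position 2 the order was turned at Klf2 (1.39 in plus, 1.44 in minus) and at Ap1m1 (0.91 and 0.95). The deviation from the sum was higher in plus orientation by 0.22 (p = 0.0078, exact). When the activity of Klf2_E058 alone was taken in the matching orientation, an alternative chosen after the values were seen, the difference was -0.01 over 7 libraries and did not pass (p = 0.2969, exact). Pairs with Klf2_E058 in position 1 were more active than those with it in position 2, by 0.15 (log2) on average in matched combinations. This held in 7 of 8 libraries (p = 0.0156, exact), with -0.03 ± 0.07 at Ap1m1 and 0.29 ± 0.06 at Lefty1. The deviation was higher in position 1 by 0.13 in 7 of 7 libraries with both positions (p = 0.0156, exact), and by 0.05 with orientation-matched single activities (p = 0.1719, exact).

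The orientation of the partner moved the pair as well, with a direction of its own for each partner. Over 50 partners with matched combinations in at least 6 libraries, the difference between plus and minus partner orientation had a median size of 0.16 (log2), and it was largest for Otx2_E114. These differences were looked at after the values were seen and carry no test. With Otx2_E114 in plus orientation the activity was 0.83 ± 0.35 higher (SD over 8 libraries), positive in all 8. At the Lefty1 promoter, with Klf2_E058 in position 1 and minus orientation, the replicates were 5.91, 5.46 and 6.07 with Otx2_E114 in plus and 2.38, 2.22 and 2.25 in minus orientation. The 6 values do not overlap, and the first combination was the most active of the 9781 enhancer-enhancer combinations of that library without a replicate at 0. Otx2_E112 followed with 0.64 ± 0.19 and Lefty1_E087 with 0.60 ± 0.18. At the other end, Sox2_E181 was lower in plus orientation, at -0.50 ± 0.18, and Nanog_E071 at -0.46 ± 0.19. Each difference rests on 1 to 4 matched combinations per library.

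The most active combinations are given as a description. Klf2_E058 combinations made up 3.84% to 4.98% of the enhancer-enhancer combinations, and their share among the most active 1% was 55.6% at Sox2, 23.9% at Fgf5, 20.4% at Lefty1 and 18.0% at Tbx3. It was 13.3% at Nanog, 12.8% at Otx2, 12.2% at Klf2 and 1.03% at Ap1m1, where 1 of 97 was a Klf2_E058 combination. The most active Klf2_E058 combination held Otx2_E114 in plus orientation at Klf2, Fgf5 and Lefty1, and Fgf5_E040 at Sox2. At Otx2, Nanog, Ap1m1 and Tbx3 it held Tbx3_E203 in plus orientation. Among all enhancer-enhancer combinations of the library, these ranked 1 at Sox2, Klf2, Fgf5 and Lefty1. They ranked 2 at Otx2, 4 at Tbx3, 6 at Nanog and 48 of 9663 at Ap1m1. In all 8 of them Klf2_E058 was in position 1. At Sox2 the combination with Fgf5_E040 had 7.56, 7.07 and 7.23 in the 3 replicates, where the additive expectation was 4.84 and the multiplicative 19.9. At Klf2 the one with Otx2_E114 had 2.80, 3.95 and 4.03, above both the additive (1.67) and the multiplicative expectation (2.42). At Fgf5 the replicates were 5.85, 7.78 and 7.50, above 2.85 and 2.52. Both of these expectations rest on 6 control combinations of Klf2_E058, with a median of 2.88 and an SD of 1.43, and both lay below that median. Over all enhancer-enhancer combinations of the Fgf5 library the median deviation from the sum was 0.61.

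Compared with other enhancers on the same partners and in the same position, Klf2_E058 lay further below the sum. Its deviation was lower than the median over all other enhancers by 0.27 on average, in 8 of 8 libraries (from -0.41 ± 0.19 at Fgf5 to -0.15 ± 0.04 at Ap1m1). The high activity of Klf2_E058 alone chose it and raises its expectations, so this difference from enhancers not chosen that way is a description with no test. Against Pou5f1_E081, the strongest enhancer, the mean difference was -0.03 (p = 0.6328, exact, also after adjustment over the 3 comparisons of this kind), from -0.13 to 0.31. It was -0.08 and below 0 in 7 of 7 libraries without the Fgf5 library (p = 0.0156, exact, the smallest possible). Against Pou5f1_E084, which is weak alone, it was -0.04 (adjusted p = 0.6328, exact), from -0.33 to 0.15. Its direction was not settled: it was 0.0024 with at least 10 control combinations, 0.0015 without the Fgf5 library, and 0.11 with the mean of the control combinations in place of the median (p = 0.0078, exact, above 0 in all 8 libraries). The activity of Klf2_E058 alone, which chose it, enters the differences from both Pou5f1 fragments too. Their p-values are therefore not independent of that choice. Partners ranked alike with other enhancers. Over 44 partners shared with Pou5f1_E081 the mean deviations had r = 0.96 (Spearman's rho 0.94), and over 53 partners they had r = 0.87 (rho 0.80) with the median deviation in pairs with all other enhancers. These points share the partners' control combinations and the libraries, and are given as a description. The size of the deviation differed for the partners with the clearest losses. Pou5f1_E084, of the same locus as Pou5f1_E081, had a deviation of -0.08 with the other enhancers, against -0.71 with Klf2_E058. Nodal_E159 had a deviation of -0.92 with Pou5f1_E081 and of -0.23 with the other enhancers, against -1.13 with Klf2_E058. In the same order, Nanog_E074 had -0.82 and -0.10, against -1.03, and Sox2_E179 had -0.51 and 0.01, against -0.77. Otx2_E114 had 0.38 and 0.34, against 0.42. Of the other partners called above the sum, Tbx3_E203 and Otx2_E115 each had 0.38 with the other enhancers, against 0.29 with Klf2_E058. Pou5f1_E083 had 0.36 against 0.37, and Nodal_E162 had 0.06 against 0.19.

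Partners of the fragment's own locus were Klf2_E046, Klf2_E057 and Klf2_E061. They had deviations of -0.17 in 3 libraries, -0.28 in 8 and -0.19 in 8. Alone, they had boost indices of 1.48, 1.29 and 1.18 averaged over libraries, at ranks 17, 20 and 24 of the 58 single enhancers. Combinations with other loci lay above those with the own locus by 0.10 on average, in 8 of 8 libraries (p = 0.0078, exact sign-flip test), with differences of 0.01 ± 0.12 at Lefty1 to 0.22 ± 0.01 at Ap1m1. In the Sox2, Fgf5 and Lefty1 libraries the replicates taken singly lay on both sides of 0. With a minimum of 1 control combination in place of 5 the mean difference was 0.07 and did not pass (p = 0.1641, exact). Partners were not matched for their strength alone in this comparison, and the part of strength in the difference was not tested. The own-locus side was the same 3 fragments throughout, and 1 of them had a deviation in 3 libraries only. The p-value measures the spread between libraries, not that between partners. Mean deviations of the other-locus partners ran from -1.13 to 0.42.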

How the data were processed

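Transcripts and plasmids of a massively parallel reporter assay were counted by barcode in 8 promoter libraries, from 73 sequenced samples (48 RNA, 16 plasmid and 9 barcode-linking libraries). Per the labels and methods, the authors linked barcodes to enhancer combinations by aligning reads with Bowtie2 to a custom reference of the enhancer and control sequences, kept barcodes with enough plasmid counts, and deposited for each combination and replicate a ratio of RNA to plasmid barcode counts, averaged over at least 5 barcodes. How repeated sequencing runs were combined is not given in the sources used here. No counts come with the ratios, so depth is unknown and precision was taken from the 3 replicates, whose p-values measure only the spread between replicates or libraries.

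Replicates were averaged geometrically. Single-enhancer activity was the median of at least 5 enhancer-control combinations of the same library and position. The additive expectation was the sum of both single activities minus the baseline, and the multiplicative expectation their product over the baseline. Of the 2897 combinations, 2744 had an expectation, and 138 of the 153 without one were in the Fgf5 library. Values per library were tested by exact sign permutation over libraries. Combinations, and the 1314 enhancer pairs of at least 6 libraries, were tested with limma 3.58.1 (R 4.3.3), with Benjamini-Hochberg adjustment over all features of a fit at a false discovery rate of 5%. Other values came from Python 3.11.15 with pandas 2.3.3. On simulated data, the limma step recovered 28% of changes of 0.5 and 65% of changes of 1 (log2) over the 6807 combinations of the Sox2 library, and 83% and 96% over the 1314 pairs. Fragment positions and primers came from the study's lists (mm10), and genes and promoter windows from RefSeq (GRCm38.p6).

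The fragment, its partners and the tests were chosen with earlier results of these data known. Named were the partners with the 5 highest and 5 lowest mean deviations and those with the 5 highest and 3 lowest boost indices alone. Also named were the other Klf2 fragments, Pou5f1_E081 and Pou5f1_E084, and the most active Klf2_E058 combination of each library. Lefty1_E094, the further partners called below the stronger enhancer and those named for partner orientation were chosen after their values were seen. The alternatives were leaving out each replicate, other averages and control minimums, pooled positions, leaving out the Fgf5 or the Ap1m1 library, a replicate block, a stricter false discovery rate and, added after the values were seen, orientation-matched single activities and the fit against the stronger enhancer.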

Additional observations from a re-analysis of the deposited data

Results flagged for a closer look

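In the Fgf5 library the deviation of the Klf2_E058 pairs from the additive expectation was 0.28, above 0 in all 3 replicates, while all replicates of the 7 other libraries lay below 0. This library held 6 control combinations of Klf2_E058 in position 1, with an SD of 1.43, and over all its enhancer-enhancer combinations the median deviation was 0.61. The part of these in the result was not tested. In the Nanog library the gain over the stronger single enhancer was -0.016, below 0 in all 3 replicates, while all replicates of 4 libraries lay above 0. The gain over Klf2_E058 alone in the Nanog library was -0.0021, again below 0 in all 3 replicates, while all replicates of 5 libraries lay above 0. The difference in deviation between Klf2_E058 and Pou5f1_E084 was 0.15 in the Otx2 library and 0.0445 in the Nanog library, above 0 in all replicates of both, and below 0 in all replicates of 2 other libraries. None of these differences between libraries was itself tested.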

How the results depend on the processing

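Of the 12 values over libraries, those not named here kept their direction and their side of the threshold under each alternative run. The additive deviation (-0.13) passed the test at -0.19 with at least 10 control combinations, -0.17 with at least 1, -0.16 with positions pooled and -0.18 without the Fgf5 library. Klf2_E058 minus Pou5f1_E081 (-0.03) passed at -0.0766 with at least 10, -0.0671 with at least 1 and -0.0769 without the Fgf5 library (exact p = 0.0156 in each). Klf2_E058 minus Pou5f1_E084 (-0.04) changed sign, to 0.0024 with at least 10, 0.0015 without the Fgf5 library and 0.11 with the mean of the control combinations (exact p = 0.0078). The excess over own-locus partners was 0.067 with at least 1 control combination and did not pass. The gain over Klf2_E058 alone (0.10) was 0.065 with positions pooled and 0.05 with at least 10, with at least 1 and without the Fgf5 library, and the gain over the stronger enhancer (0.08) was 0.034, 0.039 and 0.036 under these 3. The position difference (0.13) was 0.20 with at least 1. With Klf2_E058 alone in the matching orientation, the gain over the stronger enhancer was 0.0904, the position difference fell to 0.054 without passing and the orientation difference turned to -0.0139. The cause was not tested.

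Combinations called above the sum (335) were 87 to 211 without 1 replicate, 96 at a false discovery rate of 1% and 219 beyond 1 propagated SD, and those called below (998) were 287 to 777 without 1 replicate and 385 at 1%. Fewer replicates or a stricter rate give a test fewer calls by construction. Of the 5 partners called above the sum, 1 was called at 1%. The gain over the stronger enhancer with Pou5f1_E081 (-0.03) was -0.0621 to 0.0108 without 1 replicate and 0.0169 without the Ap1m1 library, and that with Nanog_E073 (0.02) was -0.0062 to 0.0642 without 1 replicate. Replicates with the same number in different libraries had deviations that correlated at a mean of 0.12 (-0.05 to 0.30, 84 pairs), and those with different numbers at -0.06 (-0.29 to 0.14, 168 pairs). Not every pair of same-numbered replicates passed 0.1, so the numbers were not taken as pairing, although this is a hint in the data that they share something. With the replicate block the additive deviation was -0.12 (exact p = 0.133), and 5 and 19 partners were called above and below the sum, against 5 and 18. Unknown barcode numbers limit what can be said of single combinations, and few control combinations limit the Fgf5 library.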

Other observations

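Grouped by locus, the partners of Klf2_E058 differed in their median deviation from the sum. The 6 Sox2 partners had a median of -0.41 and the 7 Nanog partners -0.29, with all 7 below 0, and these 2 loci also held the partners with the highest median boost index alone (1.62 and 2.24). The 7 Lefty1 partners had a median of 0.12 and the 6 Nodal partners 0.04, but Nodal ranged from -1.13 to 0.19 and Lefty1 from -0.46 to 0.14. The 9 Pou5f1 partners, which include both Pou5f1_E084 and Pou5f1_E083, ranged from -0.78 to 0.37. Partners of a locus are not replicates, and these values carry no test.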
